A study of Mus musculus with 6 samples.

Results

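Lsd1 occupancy was described at 10 genes of the Notch pathway: the ligand genes Dll1, Jag1 and Jag2, the receptor genes Notch1, Notch2 and Notch3, the gene of the nuclear factor Rbpj, and the target genes Hes1, Hey1 and Heyl. A peak belonged to a gene when its centre lay in the curated RefSeq span of the gene or within 10 kb of it, and the gene was the unit, 10 of 26182 curated RefSeq genes. By this rule the genes held 67 of 43426 myogenic peaks, 29 of 18893 adipogenic peaks and 49 of 33533 LSD1(OE) peaks.

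The cells were C2C12, a mouse myoblast line that fuses into myotubes in low serum and can be turned toward fat cells by adipogenic agents. Lsd1, a demethylase that removes methyl groups from histone H3, was precipitated from wild-type cells on day 1 in myogenic medium with 2% horse serum. It was also precipitated on day 1 from wild-type and LSD1(OE) cells in adipogenic medium, which held fetal calf serum with rosiglitazone, dexamethasone, indomethacin, insulin, isobutylmethylxanthine and triiodothyronine. LSD1(OE) cells were a stable lentiviral line with a tetracycline-inducible Flag-tagged LSD1, so the effects of the line, of doxycycline and of the LSD1 level cannot be told apart. Each condition had 1 ChIP library and 1 input library, so every difference is a difference between single libraries and no value has a replicate. The peak lists hold no expression values, so neither the state of the cells nor the LSD1 level was checked against markers.

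In the Notch pathway, Delta-like and Jagged ligands on the surface of a cell bind Notch receptors on its neighbour. The bound receptor is cut by proteases, and its intracellular part joins Rbpj on DNA, where it turns on genes of the Hes and Hey repressors. Without that part Rbpj is bound by corepressors, and in muscle the pathway is known for keeping precursor cells from differentiating.

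With duplicate tags limited by MACS, 46155625 myogenic, 63915769 adipogenic and 55193310 LSD1(OE) ChIP tags remained. The deepest ChIP library was thus the adipogenic library, which also had the fewest peaks. The smallest tag count of any peak was 27, 35 and 30. A peak's score is 10 times −log10 of its p-value against the local background. Scores were computed after ChIP tags were scaled up by 1.9 (myogenic), 1.28 (adipogenic) and 1.82 (LSD1(OE)). They rank peaks within a library and are not directly comparable between libraries. The tag density of a peak, which does not use this scaling, is given here in tags per kb of peak per 1000000 filtered ChIP tags. Intervals are exact 95% intervals that cover counting error only.

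All 10 genes held at least 1 Lsd1 peak in each library. Of all genes, 62.5% held a peak in the myogenic library, 41.2% in the adipogenic library and 53.9% in the LSD1(OE) library, and 37.9% held a peak in all 3. A promoter peak, with its centre within 2000 bp of a transcription start site (TSS) of the gene, was called at 10 of the 10 genes in the myogenic library, where 46.8% of all genes had such a peak. It was called at 7 genes in the adipogenic library (27.0% of all genes) and at 10 in the LSD1(OE) library (37.3% of all genes). The 7 genes with a promoter peak in all 3 libraries, a pattern of 23.5% of all genes, were Jag1, Jag2, Notch1, Notch2, Rbpj, Hes1 and Hey1. Dll1, Notch3 and Heyl had a promoter peak in the myogenic and LSD1(OE) libraries only, as had 10.8% of all genes. These counts were not equally firm. The promoter peaks of Notch3 had scores of 68.64 and 68.75 and those of Heyl in the LSD1(OE) library scores of at most 75.06, while the myogenic promoter peak of Heyl reached 118.58, close to the myogenic median of 122.

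**Figure D1:**
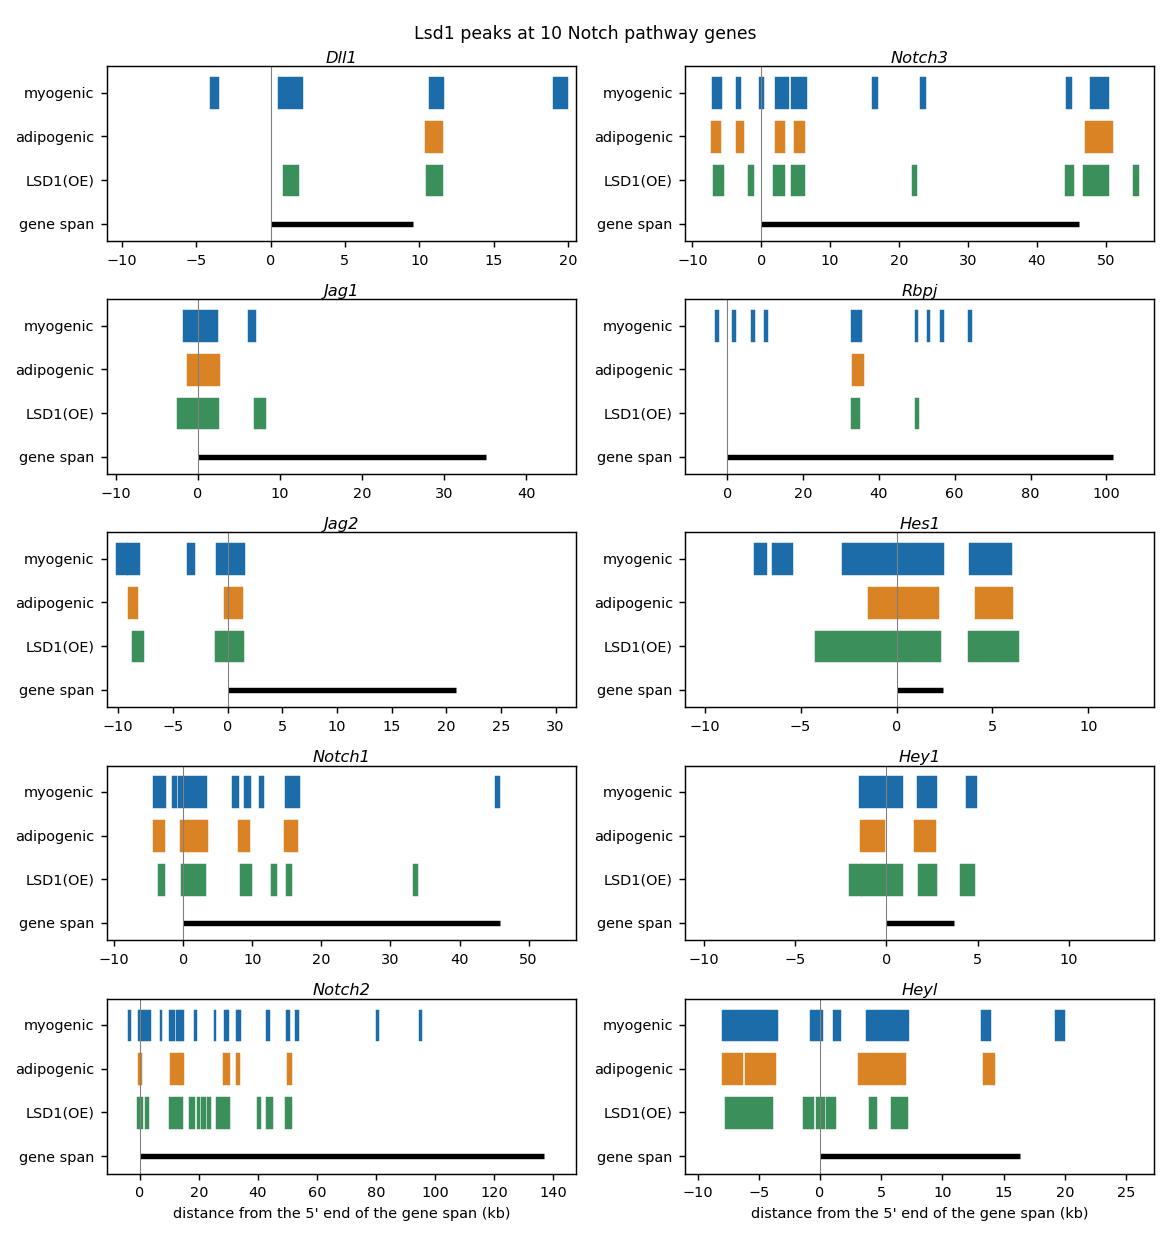
Positions of the Lsd1 peaks at the 10 genes, as distance in kb from the 5′ end of the gene span, with 1 row for each library, each bar as wide as its peak, and the gene span in black. Peaks of all 3 libraries lie over or beside the start of most genes, and the myogenic rows of Notch2 and Rbpj hold many further peaks, 18 and 9 in all.

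Among the ligand genes, the Jag1 promoter held the highest-scoring Lsd1 peak of all 10 genes in each library. Jag1, which encodes a Jagged ligand, lies on the minus strand at chr2:137081451-137116520 (mm10). Its promoter peak reached a score of 2675.31 with 455 tags in the myogenic library, 1069.92 with 415 tags in the adipogenic library and 2216.5 with 446 tags in the LSD1(OE) library. Divided by the scaling factor of each library, these scores were 1410, 838 and 1210. The tag density of these peaks was 2.35 (2.14 to 2.58), 1.67 (1.51 to 1.83) and 2.1 (1.91 to 2.3), so the adipogenic interval lay below both others. By density, the promoter peaks of Notch2 in the myogenic library (2.38) and of Rbpj in the LSD1(OE) library (2.13) were slightly higher. Over the whole region chr2:137113971-137119007, with a second LSD1(OE) peak included, the adipogenic density was 0.708 times the myogenic density (0.618 to 0.811). The median of this ratio over all regions shared by the 3 libraries was 0.791, and the Jag1 ratio stood at percentile 28.1 of them. For the same region the LSD1(OE)-to-adipogenic ratio was 1.14 (0.998 to 1.3), an interval that includes 1. The LSD1(OE)-to-myogenic ratio was 0.806 (0.709 to 0.918), so its interval lay below 1. The 200 bases around the myogenic summit, 469 bases before the TSS and between genes, are shown because they carry the highest-scoring Lsd1 peak at these genes. They lie at chr2:137116889-137117088 of mm10, are given on the minus strand as the gene is read, and have a GC content of 72.5%.
Jag1 summit: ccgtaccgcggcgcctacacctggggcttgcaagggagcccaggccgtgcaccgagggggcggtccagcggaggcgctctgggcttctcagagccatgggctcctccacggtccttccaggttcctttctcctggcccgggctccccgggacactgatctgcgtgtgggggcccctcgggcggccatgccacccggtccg
The sequence holds no TGGGAA, the core letters that Rbpj binds, on either strand.

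Jag2, the other Jagged ligand gene of the set, lies on the minus strand at chr12:112908590-112929495. Its promoter peak had 192, 156 and 245 tags in the myogenic, adipogenic and LSD1(OE) libraries, with scores of 717.47, 350.76 and 965.89. The density was 1.63 (1.4 to 1.87), 1.49 (1.27 to 1.75) and 1.74 (1.53 to 1.97), and the 3 intervals overlapped. Of the 7 genes with a promoter peak in every library, Jag2 was the gene with the highest adipogenic-to-myogenic density ratio at the promoter region, 0.918 (0.738 to 1.14). The LSD1(OE) summit lay in a coding exon of the gene, 545 bases after the TSS, in the most CpG-rich of the summit sequences printed here, with 28 CpG in 200 bases and a GC content of 75.0%. It is shown to set that composition beside the other promoters, at chr12:112928850-112929049 of mm10 on the minus strand.
Jag2 summit: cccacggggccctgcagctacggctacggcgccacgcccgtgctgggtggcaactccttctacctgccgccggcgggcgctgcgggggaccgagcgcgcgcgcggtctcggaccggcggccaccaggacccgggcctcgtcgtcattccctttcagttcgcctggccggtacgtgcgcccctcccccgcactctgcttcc
A second shared region, 8.5 kb upstream, lay in an intron of the neighbouring gene Nudt14, whose TSS was nearer to its peaks than that of Jag2.

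Dll1, which encodes a Delta-like ligand, lies on the minus strand at chr17:15367354-15376932 and was the ligand gene with the largest contrast between libraries. Its promoter peak held 128 tags in the myogenic library (chr17:15374854-15376453, score 526.58, percentile 89.1 of all myogenic peaks). In the LSD1(OE) library it held 70 tags (chr17:15375111-15376136, score 163.18, percentile 62.9). No peak was called there in the adipogenic library. The density was 1.73 (1.45 to 2.06) in the myogenic library and 1.24 (0.964 to 1.56) in the LSD1(OE) library, a ratio of 0.713 (0.525 to 0.962). At the genome-wide mean background, a stretch of 1026 bp, as long as the LSD1(OE) peak, needed 60 tags or a density of 0.915 to be called in the adipogenic library. For a stretch as long as the myogenic peak, 1600 bp, 85 tags or a density of 0.831 were needed, which is 0.48 times the myogenic density. An adipogenic density of the myogenic size would therefore have been called. By contrast, the region about 9.9 kb after the TSS, downstream of the gene, had a peak in every library. Its density was 1.29, 1.31 and 1.18 in the order myogenic, adipogenic and LSD1(OE), with overlapping intervals. The printed sequence is shown because it carries the summit of the promoter peak that the adipogenic list lacks. It is the 149 bases before the downstream of both curated TSSs of Dll1, at chr17:15375824-15375972 of mm10 on the minus strand, within an intron of the longer transcript.
Dll1 summit: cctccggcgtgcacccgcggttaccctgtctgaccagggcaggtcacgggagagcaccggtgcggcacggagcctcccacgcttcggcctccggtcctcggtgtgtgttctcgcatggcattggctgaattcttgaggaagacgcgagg
It holds 15 CpG and no TGGGAA.

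Among the receptor genes, Notch2 held the region with the lowest adipogenic-to-myogenic density ratio of the 24 regions, at the 10 genes, that had a peak in all 3 libraries. Notch2 lies on the plus strand at chr3:98013538-98150367, the longest span of the set. In the myogenic library its promoter peak held 202 tags at a density of 2.38 (2.07 to 2.74) and a score of 1211.72. In the adipogenic library it held 66 tags at 1.03 (0.795 to 1.31) with a score of 76.45, and in the LSD1(OE) library 135 tags at 1.79 (1.5 to 2.12) with a score of 562.13. The adipogenic interval lay below both others, which overlapped, and the LSD1(OE) density lay between them. The adipogenic-to-myogenic ratio of the region chr3:98012733-98014597 was 0.431 (0.322 to 0.572). Of all 11664 regions shared by the libraries, 0.0343% had a ratio as low or lower. The LSD1(OE)-to-adipogenic ratio was 1.74 (1.29 to 2.38), at percentile 99.7. The LSD1(OE)-to-myogenic ratio was 0.753 (0.601 to 0.941), so its interval lay below 1.

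The order of the libraries varied between regions inside the gene. A broad Notch2 region about 11.6 kb after the TSS, chr3:98023496-98026731, had a density of 1.42 (1.21 to 1.66) over 2 myogenic peaks, 1.64 (1.46 to 1.83) over 1 adipogenic peak and 1.99 (1.78 to 2.21) over 1 LSD1(OE) peak. The myogenic density was the lowest there, and the LSD1(OE)-to-myogenic ratio was 1.4 (1.16 to 1.7), at percentile 98.5. The adipogenic-to-myogenic ratio was 1.15 (0.95 to 1.4), an interval that includes 1. The myogenic density was also lowest 29.3 kb after the TSS, at 1.04 beside 1.33 and 1.33. It was highest 13.9 kb after the TSS (1.52, 1.24 and 1.13) and 50.2 kb after it (1.6, 1.02 and 1.34). The intronic peak about 11.6 kb after the TSS was the highest-scoring Notch2 peak of both libraries in adipogenic medium. Its score was 629.42 in wild-type cells and 1590.66 in LSD1(OE) cells. Within the gene the strongest peak thus lay at the promoter in myogenic medium and in the intron in adipogenic medium. Both places are shown, the promoter as the 200 bases before the TSS (RefSeq, GRCm38.p6, which is mm10, chr3:98013338-98013537, plus strand) and the intron as the 200 bases around the LSD1(OE) summit (chr3:98024399-98024598, plus strand), the latter chosen after its values were seen.
Notch2 promoter: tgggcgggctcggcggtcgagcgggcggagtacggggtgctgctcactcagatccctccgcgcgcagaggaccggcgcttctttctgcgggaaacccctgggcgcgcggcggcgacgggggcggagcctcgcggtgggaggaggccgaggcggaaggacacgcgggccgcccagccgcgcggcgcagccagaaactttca
Notch2 intron: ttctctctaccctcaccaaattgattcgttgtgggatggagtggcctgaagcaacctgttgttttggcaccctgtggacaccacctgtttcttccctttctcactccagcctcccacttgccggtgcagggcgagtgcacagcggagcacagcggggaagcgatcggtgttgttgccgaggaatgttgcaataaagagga
The promoter sequence has 31 CpG and a GC content of 75.0%, the intron sequence 8 CpG and 55.0%, and neither holds TGGGAA. Beyond these, Notch2 held 18, 6 and 14 peaks in the myogenic, adipogenic and LSD1(OE) libraries. Of the 11 peaks at the 10 genes that were found in the LSD1(OE) library alone, the highest score was 215.84, in Notch2 27.8 kb after the TSS.

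Notch1 lies on the minus strand at chr2:26457902-26503822. In the myogenic library its start lay under a broad peak of 362 tags with a score of 1762.76 and a density of 1.94 (1.74 to 2.15). The LSD1(OE) library had a broad peak there too, of 308 tags with a score of 741.29 and a density of 1.57 (1.4 to 1.76). In the adipogenic library the same stretch was called as 2 peaks, of which the peak over the TSS had 93 tags, a score of 159.8 and a density of 1.27 (1.02 to 1.55). Over the whole region chr2:26500447-26504566 the adipogenic-to-myogenic ratio was 0.726 (0.624 to 0.844), and the LSD1(OE)-to-adipogenic ratio of 1.12 (0.953 to 1.31) had an interval that includes 1. The LSD1(OE)-to-myogenic ratio of the region was 0.81 (0.694 to 0.946), so its interval lay below 1. A second, weak myogenic promoter peak of 28 tags with a score of 59.43 lay in a non-coding exon of the neighbouring gene Gm35978. An intronic region about 15.7 kb after the TSS had the lowest LSD1(OE)-to-myogenic ratio at the 10 genes, 0.617 (0.415 to 0.896). It set 35 LSD1(OE) tags in a called peak of 630 bp against 152 myogenic tags in a called peak of 2019 bp. The densities thus came from stretches of unlike length.

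Notch3 lies on the minus strand at chr17:32120820-32166890. Its promoter calls were weak. The myogenic peak had 32 tags and a score of 68.64, and the LSD1(OE) peak, 1512 bases before the TSS and not overlapping the myogenic peak, had 39 tags and a score of 68.75. At the genome-wide mean background the adipogenic library needed a density of 1.04 over a stretch as long as the myogenic peak, whose own density was 1.12 (0.767 to 1.58). The absence of an adipogenic call at this promoter is therefore not a detectable difference at this depth. Stronger peaks lay in the first part of the gene, 5.4 and 2.8 kb after the TSS, and 6.4 kb upstream, with a peak in all 3 libraries at each. A further region lay past the 3′ end, at chr17:32115919-32120171, where the nearest TSS was that of Pdxk-ps. It held the highest-scoring Notch3 peak of the adipogenic library (737.33) and of the LSD1(OE) library (1856.15), while in the myogenic library its score of 676.76 was below the 795.01 of the peak 5.4 kb after the TSS. There the density was 1.58 (1.36 to 1.82), 1.38 (1.24 to 1.53) and 1.99 (1.8 to 2.19) in the myogenic, adipogenic and LSD1(OE) libraries, and the LSD1(OE)-to-adipogenic ratio was 1.44 (1.25 to 1.67). The region 2.8 kb after the TSS had the same ratio, 1.44 (1.1 to 1.89).

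Rbpj, which encodes the factor that carries the Notch signal to DNA, lies on the plus strand at chr5:53555779-53657445 with 3 curated TSSs. A promoter peak at an internal start was found in every library, with 277 tags and a score of 1604.81 in the myogenic library, 264 tags and 588.41 in the adipogenic library, and 246 tags and 1247.85 in the LSD1(OE) library. Its density was 2.31 (2.04 to 2.6), 1.45 (1.28 to 1.64) and 2.13 (1.87 to 2.41), so the adipogenic interval lay below both others, which overlapped. The adipogenic-to-myogenic ratio was 0.63 (0.53 to 0.748) and the LSD1(OE)-to-adipogenic ratio 1.46 (1.22 to 1.75), at percentiles 11.7 and 96.2 of all shared regions. Away from this start, the myogenic library had 8 more peaks with scores up to 96.62, the adipogenic library none, and the LSD1(OE) library 1 with a score of 81.56. Those 8 included a promoter peak at the upstream start with 29 tags and a score of 53.63. The sequences are shown because this peak carries the letters of the protein's own site. The first holds 200 bases around the myogenic summit (chr5:53589194-53589393 of mm10), the second the 200 bases before the TSS (RefSeq, GRCm38.p6, chr5:53590146-53590345), both on the plus strand, with each TGGGAA on either strand in capitals.
Rbpj summit: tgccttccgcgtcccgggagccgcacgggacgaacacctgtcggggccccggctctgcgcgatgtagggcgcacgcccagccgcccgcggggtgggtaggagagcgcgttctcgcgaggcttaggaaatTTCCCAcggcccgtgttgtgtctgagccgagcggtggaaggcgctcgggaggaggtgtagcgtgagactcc
Rbpj promoter: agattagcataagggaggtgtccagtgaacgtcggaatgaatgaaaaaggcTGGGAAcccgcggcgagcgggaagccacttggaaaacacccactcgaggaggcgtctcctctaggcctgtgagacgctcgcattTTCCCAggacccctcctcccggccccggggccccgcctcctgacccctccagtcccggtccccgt
The summit sequence holds the letters at base 130, on the reverse strand. In the promoter sequence they begin 149 and 65 bases before the TSS. Such a match is a description of the letters and not of a bound site.

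**Figure D2:**
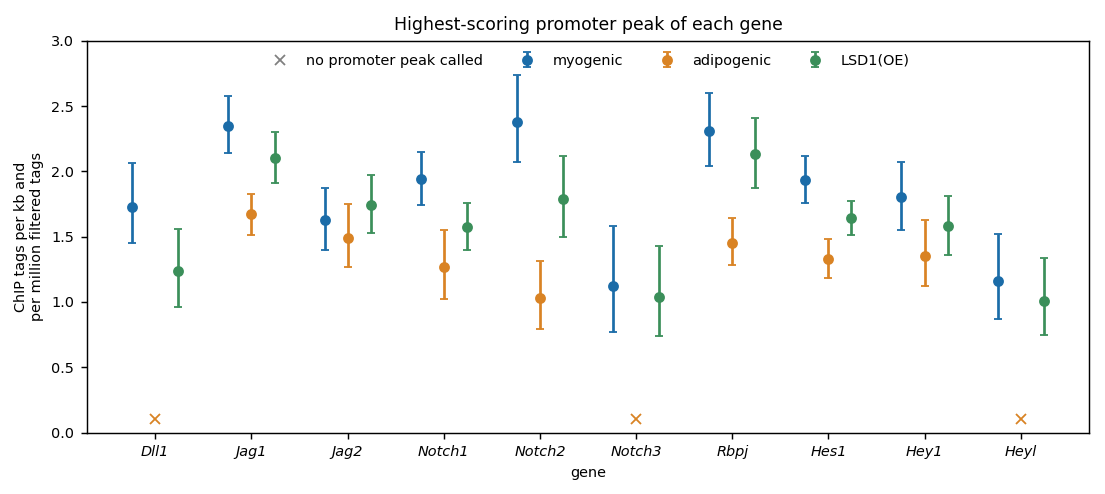
Tag density (ChIP tags per kb of peak per 1000000 filtered tags) of the highest-scoring promoter peak of each gene in the 3 libraries, with exact 95% Poisson intervals as bars and a cross where no promoter peak was called. The adipogenic point lies below the myogenic point at each of the 7 genes that have both, from 1.03 against 2.38 at Notch2 to 1.49 against 1.63 at Jag2.

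Of the target genes, Hes1, a repressor that is a textbook readout of Notch signalling, had the longest peak of the 10 genes in the myogenic and LSD1(OE) libraries. It lies on the plus strand at chr16:30065357-30067796, and its promoter peak spanned 6504 bp in the LSD1(OE) library, 5237 bp in the myogenic library and 3621 bp in the adipogenic library. The scores were 2178.96 (467 tags), 459.54 (307 tags) and 2124.72 (587 tags) in the order myogenic, adipogenic and LSD1(OE). The density was 1.93 (1.76 to 2.12), 1.33 (1.18 to 1.48) and 1.64 (1.51 to 1.77), so the adipogenic interval lay below both others, and the myogenic and LSD1(OE) intervals barely overlapped. A second region about 5.0 kb after the TSS, downstream of the short gene, kept the same order at 1.95, 1.25 and 1.69. The adipogenic-to-myogenic ratios of these regions were 0.687 (0.593 to 0.795) and 0.641 (0.515 to 0.796), and the LSD1(OE)-to-adipogenic ratios 1.23 (1.07 to 1.42) and 1.35 (1.1 to 1.67). The LSD1(OE)-to-myogenic ratios were 0.846 (0.748 to 0.958) and 0.867 (0.715 to 1.05), and only the latter interval includes 1.

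Hey1, a related repressor, lies on the minus strand at chr3:8663359-8667038. Its main promoter peak had 195, 113 and 196 tags with scores of 835.64, 218.97 and 669.36. The density was 1.8 (1.55 to 2.07), 1.35 (1.12 to 1.63) and 1.58 (1.36 to 1.81), with overlapping intervals. The LSD1(OE) library had a further weak promoter peak of 34 tags with a score of 58.5. Over the whole region, with that peak included, the adipogenic-to-myogenic ratio was 0.754 (0.592 to 0.955) and the LSD1(OE)-to-myogenic ratio 0.811 (0.667 to 0.987), so both intervals lay below 1. A region over the coding exons, 2.1 kb after the TSS, had a density of 1.34, 1.25 and 1.21, and did not differ between libraries beyond counting error.

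Heyl, the third of these repressor genes, lies on the plus strand at chr4:123233556-123249870 and had its strong peaks beside the promoter rather than on it. A region 5.8 kb upstream, chr4:123225521-123230034, had a density of 1.92 (1.73 to 2.12), 1.56 (1.41 to 1.71) and 1.72 (1.55 to 1.91). An intronic region 5.1 kb after the TSS, chr4:123236666-123240712, had 2.08 (1.86 to 2.32), 1.45 (1.3 to 1.61) and 1.43 (1.2 to 1.68). In the intron the LSD1(OE) density was close to the adipogenic density, with a ratio of 0.986 (0.807 to 1.2), and 0.684 (0.559 to 0.834) times the myogenic density. At the promoter itself the myogenic library had peaks with scores of 118.58 and 54.65, and the LSD1(OE) library had weak peaks with scores of 75.06, 62.68 and 56.85. The adipogenic library had none. For the stronger myogenic peak, of 54 tags and a density of 1.16 (0.873 to 1.52), the adipogenic library needed a density of 0.917 to make a call. That threshold lies within the myogenic interval, so the missing adipogenic call is not a detectable difference either.

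Peaks at the 10 genes overlapped between libraries as follows, where at least 1 shared base counted. All 29 adipogenic peaks were overlapped by a myogenic peak, against 80.5% of all adipogenic peaks, and 26 of the 29 by an LSD1(OE) peak, against 74.5%. Of the 67 myogenic peaks, 31 were overlapped by an adipogenic peak (46.3%, against 35.4% of all) and 36 by an LSD1(OE) peak (53.7%, against 46.5%). Of the 49 LSD1(OE) peaks, 38 were overlapped by a myogenic peak (77.6%, against 59.8%) and 26 by an adipogenic peak (53.1%, against 42.0%). In the myogenic library 26 peaks were overlapped in neither other library (38.8%, against 46.9% of all), with scores from 50.02 to 153.78. In the LSD1(OE) library these were 11 peaks (22.4%, against 35.2%), with scores from 52.43 to 215.84 and a median of 94.3, and in the adipogenic library 0, against 11.1%. Each library had 26 peaks that were overlapped in both others, which was 38.8% of the myogenic peaks (28.8% of all), 89.7% of the adipogenic peaks (66.1% of all) and 53.1% of the LSD1(OE) peaks (37.0% of all). Their median score was 551, 215 and 447.

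Merging overlapping peaks gave 24 regions, at all 10 genes, with a peak in every library. In the adipogenic library the tag density was below the myogenic density in 20 of them, with a median ratio of 0.756 beside 0.791 over all 11664 shared regions. The interval lay below 1 in 13 of the 24 (43.6% of all regions) and above 1 in 0 (0.334% of all regions). With the tags of the 24 regions added up, the ratio was 0.768 (0.737 to 0.8). The LSD1(OE)-to-adipogenic ratio had a median of 1.15 beside 1.09 over all regions. Its interval lay above 1 in 7 of the 24 regions (17.3% of all regions) and below 1 in 0 (1.37%), and the ratio of the added tags was 1.19 (1.14 to 1.24). The 7 regions were the Notch2 promoter and intron, a Notch3 intron and the region past its 3′ end, the Rbpj promoter, and both Hes1 regions. The LSD1(OE)-to-myogenic ratio had a median of 0.857 beside 0.866, with the interval below 1 in 7 regions (28.0% of all) and above 1 in 2 (2.92%), and a ratio of the added tags of 0.911 (0.875 to 0.948). The 2 regions were the Notch2 intron and the region past Notch3. The medians at these genes were therefore close to those of all shared regions, and lower adipogenic density was a feature of the libraries as a whole. The 3 ratios share libraries, so they are not independent of each other.

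**Figure D3:**
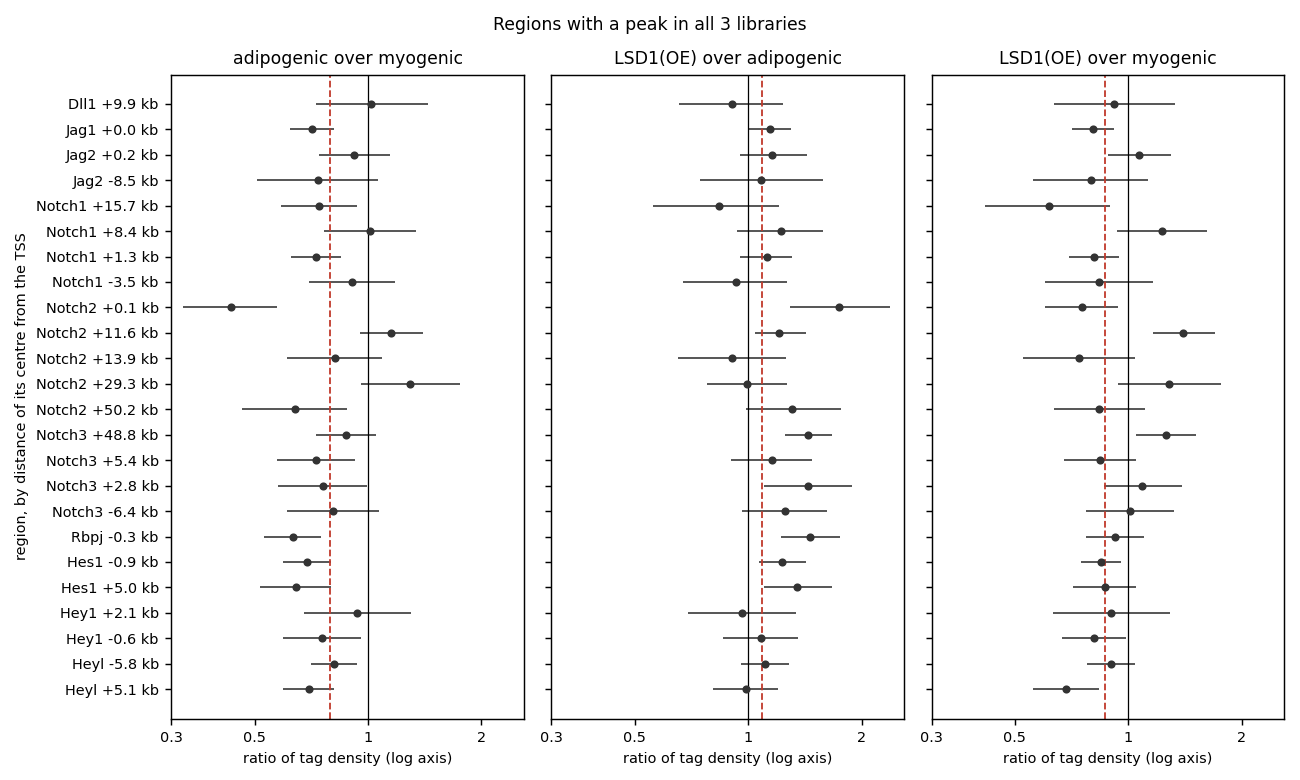
Ratio of tag density between libraries, on a log axis, at the 24 regions with a peak in every library, named by gene and by the distance of the region's centre from the TSS, with exact 95% intervals. The dashed line is the median over all 11664 shared regions (0.791, 1.09 and 0.866), and the Notch2 promoter lies farthest from it in the adipogenic-over-myogenic panel, at 0.431.

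Added up, the windows of the 10 genes held 10.8 peaks per 100 kb in the myogenic library, 4.69 in the adipogenic library and 7.92 in the LSD1(OE) library, where the windows of all genes held 2.99, 1.35 and 2.27. Rbpj was the exception, with 0.822 in the adipogenic library and 1.64 in the LSD1(OE) library, below the values of all genes. The median score of their peaks was 112, 209 and 146, beside 122, 112 and 116 for all peaks. Peaks of at least 3 kb numbered 5 of 67, 5 of 29 and 6 of 49, where 2.06%, 2.85% and 2.76% of all peaks were as long. The number of peaks in a library depended on the length of its peak list. With lists of equal peak number the 10 genes held 25 myogenic, 29 adipogenic and 31 LSD1(OE) peaks.

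Base composition, which the choice of genes did not use, varied widely among the promoter peaks. In the 300 bp around the summit their median GC content was 70.7% in the 13 myogenic peaks, 70.0% in the 7 adipogenic peaks and 62.0% in the 13 LSD1(OE) peaks, beside 62.3%, 62.3% and 62.0% for all promoter peaks. Single promoter peaks ranged from 36.7 to 78.0% in the myogenic library, from 53.3 to 77.0% in the adipogenic library and from 42.0 to 75.0% in the LSD1(OE) library. The other peaks at these genes had medians of 51.7%, 53.7% and 51.5%. The letters TGGGAA were found on either strand in 27 of 67 myogenic peaks (40.3%, against 28.6% of all peaks), 12 of 29 adipogenic peaks (41.4%, against 28.0%) and 16 of 49 LSD1(OE) peaks (32.7%, against 28.6%). CAGCTG, the E-box letters that myogenic factors favour, were found in 19 (28.4%, against 25.8%), 9 (31.0%, against 29.3%) and 9 (18.4%, against 25.9%). TGANTCA, the AP-1 letters, were found in 11 (16.4%, against 18.9%), 6 (20.7%, against 20.3%) and 4 (8.16%, against 18.1%). The RefSeq promoter table held 9 promoters of 7 of the genes, without Hes1, Hey1 and Heyl. Only the Rbpj promoters among them held TGGGAA, which 25.6% of all 32851 promoters hold.

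The wider pathway was described over 56 further genes, all of which matched RefSeq. A promoter peak was called at 48 of them (85.7%, against 46.8% of all genes) in the myogenic library, 26 (46.4%, against 27.0%) in the adipogenic library and 39 (69.6%, against 37.3%) in the LSD1(OE) library. With lists of equal peak number these counts were 37, 26 and 34, so part of the contrast between libraries went with the length of the lists. In all 3 libraries a promoter peak was found at 25 genes, a pattern of 23.5% of all genes. In the myogenic and LSD1(OE) libraries only, the pattern of 10.8% of all genes, it was found at 13, among them Poglut1, Mib2, Neurl1a, Neurl1b, Aph1b, Aph1c, Dtx3, Maml1, Maml3, Crebbp, Spen and Tle4. Aph1b and Aph1c are near-identical copies, so reads may be split between them and their calls are uncertain. A promoter peak in the myogenic library alone was found at 9 of the 56 genes, beside 9.98% of all genes. The LSD1(OE) library alone had it at 1 gene (2.59% of all genes). The myogenic and adipogenic libraries only had it at 1 gene (2.53% of all genes).

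Glycosyltransferases, which add sugars to the receptor and set its response to ligands, had a promoter peak at 5, 3 and 4 of 5 genes. Lfng, a Fringe enzyme, had the highest promoter score of the group, 2927.07 with 537 tags in the myogenic library. Its promoter score was 391.8 with 159 tags in the adipogenic library and 1079.13 with 212 tags in the LSD1(OE) library. In these libraries its strongest peaks lay away from the promoter, with scores of 795.45 and 1710.43. The ubiquitin ligases that drive ligand uptake had a promoter peak at 4, 1 and 4 of 4 genes, and their highest score was 2830.52, at a myogenic peak of Neurl1a away from its promoter. The proteases that cut or process the receptor had a promoter peak at 9, 5 and 8 of 10 genes. Psen2 had scores of 359.58, 127.77 and 670.46 in the myogenic, adipogenic and LSD1(OE) libraries, the last of them above the 266.46 of Adam10, which was higher than Psen2 in the myogenic (498.54) and adipogenic (200.6) libraries. The myogenic library alone had a promoter peak at Ncstn (score 148.94), a subunit of γ-secretase.

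Inhibitors and turnover factors of the receptor had a promoter peak at 8, 5 and 5 of 9 genes. The myogenic library alone had it at Numb (353.66), an inhibitor of Notch, and at Dtx2 (146.04), and the myogenic and adipogenic libraries had it at Itch (186 and 53.99), a ubiquitin ligase. Nrarp, a feedback inhibitor, had a promoter peak in every library, with scores of 941.9, 817.9 and 628.91. Coactivators had a promoter peak at 7, 3 and 6 of 7 genes. Ep300, an acetyltransferase, had promoter scores of 1400.38, 52.58 and 393.76 with 270, 65 and 141 tags, and Kat2b had promoter scores of 328.68, 195.89 and 1432.54. The myogenic library alone had a promoter peak at Snw1 (213.27).

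Corepressors had a promoter peak at 9, 5 and 7 of 9 genes. Tle1, a Groucho-type corepressor, had promoter scores of 1934.84, 483.43 and 2212.81. The myogenic library alone had a promoter peak at Cir1 (92.1) and Ctbp2 (144.9). Among the other ligand genes, Dner had a promoter peak in the LSD1(OE) library alone, with a score of 51.47, while its strongest peak there, away from the promoter, had 1035.12. Notch4, the remaining receptor gene, had a weak promoter peak in the myogenic library alone (60.39), as had Rfng (51.02) of the Fringe group. The response to Notch of the further Hes and Hey genes was not tested. Among them, Hes6 had the highest promoter score of all 56 genes within the LSD1(OE) library and within the adipogenic library. These scores were 3070.98 with 518 tags and 1553.64 with 405 tags. In the myogenic library Hes6 had 1197.89 with 240 tags, below Lfng (2927.07), Tle1 (1934.84) and Ep300 (1400.38). Hes7 had a promoter peak in the myogenic library alone (467.37). No promoter peak was called at Dll3, Dlk1, Psenen, Dtx1, Hes2, Hes3 and Hes5 in any library. These were 7 of the 56 genes, where 49.7% of all genes had none.

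**Figure D4:**
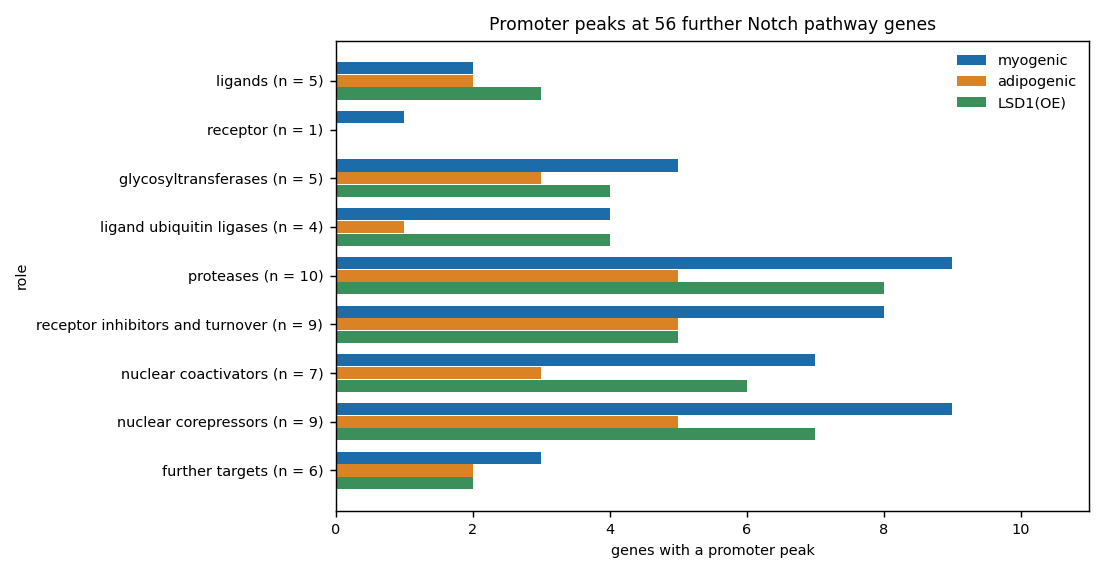
Number of genes with a Lsd1 promoter peak in each library, for 56 further Notch pathway genes grouped by role, with the size of each group in its label. The group labelled further targets holds other Hes and Hey genes, whose response to Notch was not tested. The adipogenic bar is the shortest or ties for it in every group, with totals of 48 myogenic, 26 adipogenic and 39 LSD1(OE) genes. With lists of equal peak number these totals were 37, 26 and 34.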

How the data were processed

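Lsd1 ChIP-seq of C2C12 cells comprised 1 ChIP library and 1 input library for each of 3 conditions. The authors mapped reads to mm10 with Bowtie2 and called peaks of each ChIP library against its input with MACS (1.4.2 in the file headers, 1.41 in the submitters' processing notes) at a p cut-off of 1e-05. The deposited tag count of a peak is a raw count after MACS had limited duplicates. The deposited score multiplies the −log10 p-value of a peak by 10 and was computed after the authors' run had scaled the ChIP tags up to the input by 1.9, 1.28 and 1.82. The deposited fold enrichment, a ratio over the local background, and the deposited FDR in percent were used as given. A browser track copy of the peaks was not used.

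Genes and TSSs were taken from 26182 curated RefSeq genes on GRCm38.p6, the patched mm10 assembly. Peaks were assigned by their centre to gene windows (span and 10 kb either side) and promoters (2000 bp either side of any TSS), and overlaps needed 1 bp. Tag densities were divided by the length of the peak as called and by filtered ChIP tags. Intervals are exact 95% Poisson intervals, or exact binomial intervals for ratios, and cover counting error only. The tags needed for a call were computed from the Poisson p cut-off at the mean background of the larger library over the effective genome, so a higher local background would raise them. With 1 library a condition no test was run and no p-value is given. Motifs were searched as exact letters on both strands in 300 bp around the summit.

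All 10 genes are named, with their highest-scoring and promoter peaks. Of the wider list, genes are named that had a promoter peak in 1 or 2 of the 3 libraries or the highest score of their role, and Ep300, Tle1, Nrarp and further examples were chosen after their values were seen. Some genes that this rule names are not reported here. The genes and lists were chosen with earlier results of these data known. Assignment, overlap and intervals were tested on simulated data. The alternatives were stricter peak lists, other windows, positions, annotations and overlaps, other density scalings and other motif windows. Expression data and reads were not analysed here. Intervals came from SciPy 1.17.1, tables from pandas 2.3.3 and sequences were read with pysam 0.24.0, under Python 3.11.15.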

Additional observations from a re-analysis of the deposited data

How the results depend on the processing

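Of 153 alternative values of 33 results, 123 stayed near the reported value, 29 moved and 1 reversed. The number of peaks at the 10 genes was the least stable. For the myogenic library it was 34 with an FDR of at most 0.1%, 34 with a score of at least 100, 25 with equal peak numbers, 35 with ChIP tags not scaled up and 44 in the gene span alone. For the LSD1(OE) library it was 28, 31, 31 and 32 in the first 4 of these. For the adipogenic library it was 23, 23, 29 and 28 in the same settings, and 18 in the gene span alone. With equal peak numbers the myogenic count was thus below the adipogenic count, so the order of the libraries depends on the length of their peak lists. LSD1(OE) peaks overlapped by a myogenic peak fell to 24 with a reciprocal overlap of 50%, 24 with the stricter FDR and 22 with equal peak numbers, and myogenic peaks overlapped by an LSD1(OE) peak to 22 with equal peak numbers.

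At shared regions the adipogenic-to-myogenic density ratio was 0.706 by merged region length, 0.734 over regions with 1 peak in each library, 0.67 less the genome-wide mean density, 0.971 relative to all shared regions and 0.737 over the local background solved from the score. The LSD1(OE)-to-adipogenic ratio was 1.26, 1.25, 1.3 and 1.08 in the first 4 of these. The LSD1(OE)-to-myogenic ratio was 0.873 less the genome-wide mean density and reversed to 1.05 relative to all shared regions, since the median of all regions was 0.866. Among motifs in myogenic peaks, TEAD letters were found in 9 peaks and glucocorticoid receptor letters in 1 within 200 bp of sequence on the summit, RUNX letters in 12 there and 11 in 300 bp on the peak centre, and MEF2 letters in 1 on the centre. The alternatives with the solved background, and the stricter lists for the wider genes, were chosen after seeing the data.

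Promoter calls moved at named genes. Notch3 lost its promoter peak in the myogenic and LSD1(OE) libraries with the stricter FDR, the higher score, equal peak numbers and unscaled tags. Heyl lost its LSD1(OE) promoter peak in the same 4 settings, and its myogenic promoter peak with equal peak numbers. Notch2 lost its adipogenic promoter peak with the stricter FDR and the higher score. With a promoter of 1000 bp Notch3 had none in the LSD1(OE) library, and Notch1 none in the myogenic and LSD1(OE) libraries, where the centre of a broad peak lay beyond it. In the adipogenic library a promoter of 5000 bp gave 9 genes, with Notch3 and Heyl added, and predicted transcripts gave 8, with Notch3 added, so their lack of an adipogenic promoter peak depends on the definition. The Dll1 pattern, a promoter peak in the myogenic and LSD1(OE) libraries and none in the adipogenic library, was found in all 8 of these settings, including promoters of 1000 and 5000 bp, predicted transcripts and assignment by summit. No paired analysis was possible because each condition had 1 library. Depth limits weak peaks most: at 27 to 35 tags, the smallest counts of a called peak, presence in one library and absence in another cannot be read as a difference.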

Other observations

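Some peaks in the windows lay nearer to the TSS of a neighbouring gene than to that of the Notch pathway gene, 10 of 67 in the myogenic library, 3 of 29 in the adipogenic library and 6 of 49 in the LSD1(OE) library. The nearest TSS was that of Nudt14 for Jag2 peaks, Gm35978 or Mir6996 for Notch1 peaks, Pdxk-ps for Notch3 peaks and Gm10510 for a Dll1 peak. For 2 weak peaks inside a Notch2 intron, 80.3 and 94.8 kb after the Notch2 TSS, it was that of Adam30, itself far from them. Which gene such a peak belongs to was not tested.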
